A study of Mus musculus with 12 samples.

Results

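The effect of differentiation medium was measured in control cells that received no BIGH3, as 3 differentiated control libraries set against 3 undifferentiated control libraries, which are 6 of the 12 libraries of the series. The cells are a mouse line labelled MLO-Y4, an osteocyte line of WT genotype, and all libraries came from cells on plates coated with rat type I collagen at 0.15 mg/mL. Differentiated controls were grown in α-MEM with 10% fetal bovine serum, ascorbic acid at 50 µg/mL and β-glycerophosphate at 4 mM. For undifferentiated controls the labels give neither supplements nor serum, so a direct effect of the medium and differentiation of the cells cannot be told apart. The other 6 libraries, of cells given recombinant human BIGH3 (the protein of Tgfbi) in each medium, enter only through the shared estimate of the spread and the comparison of the medium effect given last. How long the cells were cultured is not stated. MLO-Y4 is known as a clonal line from a mouse that carries SV40 large T antigen under the osteocalcin promoter, so the cells are immortalised. No label ties the 3 libraries of a group to separate cultures, and p-values therefore measure only the spread between these libraries, which may be technical. The deposited names begin with MC3 rather than with the labelled line, a mismatch that was left untested.

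Ascorbic acid is the cofactor that keeps the iron of prolyl and lysyl hydroxylases reduced, and without it collagen is not hydroxylated and folds poorly. β-Glycerophosphate is a substrate of alkaline phosphatase, which frees phosphate from it for hydroxyapatite. Bone-forming cells given both lay down and mineralise a collagen matrix over days to weeks, and osteocytes are the cells that such osteoblasts become once they are buried in it.

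Each library held 22803778 to 25736952 estimated reads in differentiated controls and 20545484 to 27612155 in undifferentiated controls, and the first principal component (64.9% of the variance) separated the groups. The second (14.1%) set apart replicate 2 of each group. Hepatocyte and visceral endoderm markers, which neither group should express, summed to 8.45, 47.4 and 8.75 TPM (a level per length, scaled to a fixed sum per library) in differentiated controls, against 11.4, 132.9 and 10.3 TPM in undifferentiated controls, with Afp, the fetal liver protein, at 1.65, 24.9 and 2.29 CPM (read counts scaled to library size by TMM, not per length) in differentiated controls, against 1.5, 63.3 and 1.81 CPM in undifferentiated controls. Both replicates 2 therefore hold transcripts that go against the label, and the totals of genes, transcripts and usage calls are also given without them. Of genes used as markers of osteocytes, Dmp1, Phex, Gja1 and Pdpn were measured in every library, whereas Sost had 10 reads over the differentiated controls and 0 over the undifferentiated controls, and Fgf23 had 0 in all 6.

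In all, of the 14711 genes tested, 8491 (57.7%) changed at an adjusted p below 0.05, 4287 (29.1%) higher and 4204 (28.6%) lower in differentiated controls. So a list in which close to 29% of the members changed in a direction is at the background. The median log2 fold change was 0.47 among the genes called higher and -0.51 among those called lower, and 1036 (7.04%) rose and 935 (6.36%) fell by over 2-fold. Large rises outnumbered large falls, with 263 genes more than 8-fold higher and 34 more than 8-fold lower. The libraries of the groups did not overlap for 9325 genes (63.4%), of which 8198 were called. Without replicate 2 of each group 7275 of 14918 genes (48.8%) were called, and 7099 of them were called with all libraries, each in the same direction. The split of directions depends on the scaling. TMM brings a trimmed mean of the log ratios between libraries to about 0. With library totals in place of TMM the split was 2930 higher and 5899 lower, and the median of all genes moved to -0.16. On log2(TPM + 1) with limma the split was 1728 higher and 6965 lower with a median of -0.25. Changes below are therefore relative to the median gene. For lists whose direction relative to 0 turns under either scaling, the values there are given. Medians under those scalings compare with -0.16 and -0.25 for all genes, not with 0. In bulk RNA, fewer cells of a kind and less RNA per cell cannot be told apart.

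**Figure D1:**
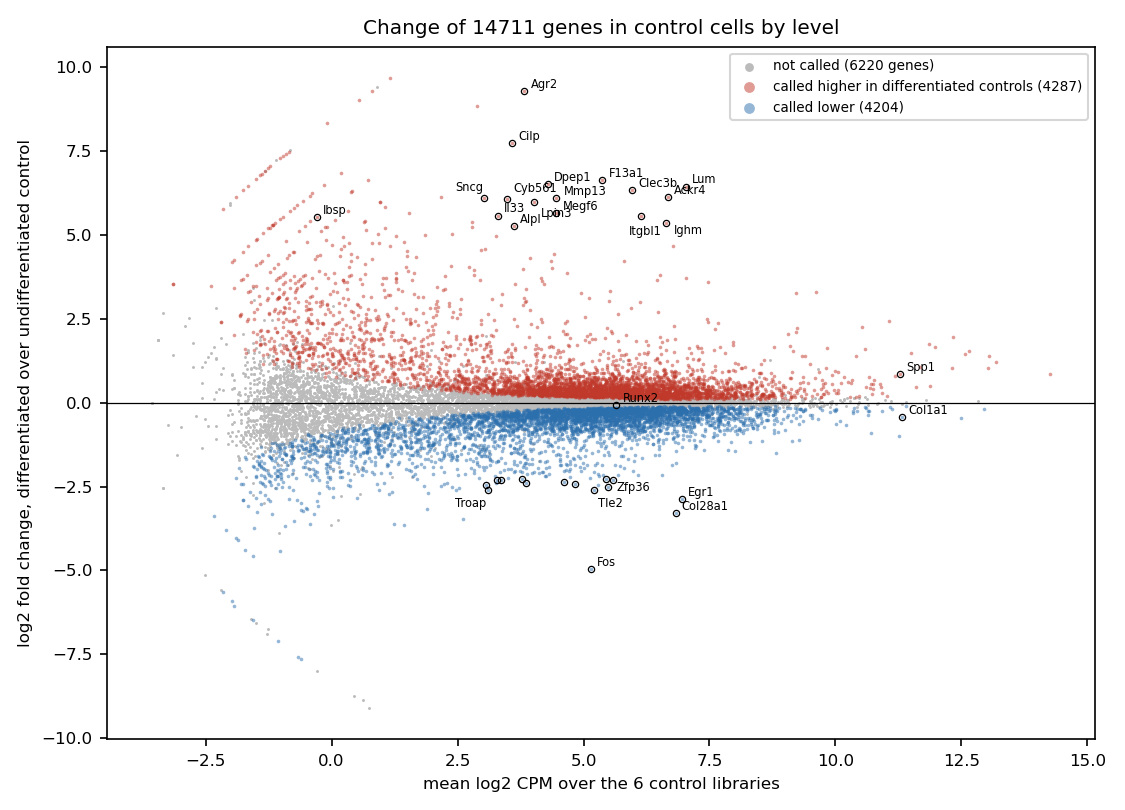
Each point is a gene, placed by its mean log2 CPM over the 6 control libraries (x axis) and its log2 fold change in differentiated over undifferentiated controls (y axis); red genes were called higher (4287), blue genes lower (4204). Circles mark the 15 largest rises and falls at a mean log2 CPM of at least 3 plus 5 bone genes, and the rises reach further from 0 than the falls.

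Agr2, an endoplasmic reticulum disulphide isomerase best known from mucus-secreting epithelia, had 27.4, 28.6 and 29.7 CPM in differentiated controls, against 0, 0.0817 and 0.0349 CPM in undifferentiated controls. That is 1919 reads against 3, a ratio of 639 with a 95% counting interval of 218 to 3101, which covers counting error alone. Cilp, a cartilage intermediate layer protein that binds TGF-beta, had 23.8, 24.2 and 24.1 CPM in differentiated controls, against 0.0938, 0.204 and 0.0349 CPM in undifferentiated controls (log2 fold change 7.73 ± 0.29 SE, edgeR adjusted p = 1.94e-14). Every differentiated control stood far above every undifferentiated control for both genes.

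F13a1, the transglutaminase subunit of factor XIII that crosslinks fibrin and matrix proteins, had 83.0, 81.0 and 83.2 CPM in differentiated controls, against 0.750, 1.18 and 0.558 CPM in undifferentiated controls (6.64 ± 0.13, adjusted p = 1.60e-19). Clec3b encodes tetranectin, a plasminogen-binding lectin found in mineralising bone, and had 124, 127 and 120 CPM in differentiated controls, against 1.22, 1.31 and 1.95 CPM in undifferentiated controls. Ackr4, a scavenging chemokine receptor, had 195, 191 and 219 CPM in differentiated controls, against 3.09, 2.66 and 2.83 CPM in undifferentiated controls. The libraries of a group lay close together for all 3 genes, and the groups were many-fold apart. Itgbl1, an integrin beta-like secreted protein, rose by 5.56 ± 0.07, and Dpep1, a membrane dipeptidase, by 6.53 ± 0.18 on the log2 scale. The remaining large rises were those of the synuclein gene Sncg (6.12), the ascorbate-dependent reductase gene Cyb561 (6.08), the phosphatidate phosphatase gene Lpin3 (5.97), Megf6 (5.64), the alarmin gene Il33 (5.58) and the immunoglobulin heavy chain constant gene Ighm (5.35), and those of Lum and Mmp13, given with their families below. Ighd, the neighbouring immunoglobulin constant gene, had 302 reads over the differentiated controls and 0 over the undifferentiated controls, at least 101-fold higher when the empty group is set to 3 reads. Ighd was picked from genes with 0 reads in a group.

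Alkaline phosphatase was near 0 in undifferentiated controls and rose. Alpl (GRCm38 chr4:137741733-137796384, minus strand), which encodes the enzyme that cleaves β-glycerophosphate and pyrophosphate, had 25.3, 22.9 and 24.4 CPM in differentiated controls, against 0.281, 1.39 and 0.209 CPM in undifferentiated controls. All differentiated controls were above all undifferentiated controls, and the highest of these was the replicate 2 with liver transcripts (5.27 ± 0.43, 38.7-fold higher, adjusted p = 3.73e-06). Of 11 tested genes for phosphate and pyrophosphate control 7 rose and 2 fell, with a median of 1.16 against -0.01 for all genes. The filter keeps a gene expressed in a single group, so members near 0 in undifferentiated controls, such as Alpl and Enpp3, entered through groups where they are high. That selection alone favours rises in the count and the median, here and in other lists with such members. Phex, an endopeptidase that restrains FGF23 and cleaves mineral-inhibiting peptides, had 80.2, 87.3 and 83.7 CPM in differentiated controls, against 9.19, 8.05 and 7.57 CPM in undifferentiated controls (3.35 ± 0.09). Phospho1, the phosphatase of matrix vesicles, had 11.7, 10.1 and 8.33 CPM in differentiated controls, against 1.92, 1.35 and 1.57 CPM in undifferentiated controls (2.64 ± 0.21). None of these libraries overlapped between the groups. Nt5e, which turns AMP into adenosine and phosphate, rose by 2.39 ± 0.09, Smpd3, a sphingomyelinase needed for bone mineral, by 1.16 ± 0.13, and the phosphate carrier gene Slc20a1 by 0.66 ± 0.07. The phosphate exporter gene Xpr1 and the carrier gene Slc20a2 fell by 0.22 and 0.18, and the pyrophosphate transporter gene Ank was not called (0.01). Enpp3, a nucleotide pyrophosphatase gene, was called higher from 71 reads over the differentiated controls and 1 over the undifferentiated controls.

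Among mineral-binding matrix proteins 6 of 10 tested genes rose and 2 fell (median 0.57), with the same selection in favour of rises for members such as Ibsp. Ibsp, encoding bone sialoprotein, had 101 reads over the differentiated controls and 2 over the undifferentiated controls, a ratio of 50.4 with a counting interval of 13.6 to 422. Its level stayed low, at 1.53, 1.70 and 1.28 CPM in differentiated controls, against 0, 0.0409 and 0.0349 CPM in undifferentiated controls. Bglap, an osteocalcin gene, had 13.3, 13.2 and 13.3 CPM in differentiated controls, against 2.95, 2.45 and 1.92 CPM in undifferentiated controls (2.45 ± 0.16). Its near-identical neighbour Bglap2 had 26.0, 28.1 and 24.1 CPM in differentiated controls, against 5.35, 5.43 and 4.68 CPM in undifferentiated controls (2.34 ± 0.11). Reads of these copies could be divided between them wrongly, so the split is uncertain, and the third copy Bglap3 was not called (0.67 ± 0.46, with overlap between the groups). Spp1, encoding osteopontin, was abundant in both groups and had 3119, 3200 and 3314 CPM in differentiated controls, against 1764, 1769 and 1743 CPM in undifferentiated controls (0.87 ± 0.04). Sparc, encoding osteonectin, rose by 0.48 ± 0.05. The 2 falls were Mgp, an inhibitor of calcification (-0.53), and Dmp1, a mineralising protein of osteocytes, at 37.1, 35.6 and 38.6 CPM in differentiated controls, against 51.9, 51.7 and 59.4 CPM in undifferentiated controls (-0.55 ± 0.07). Mepe, untested for its low counts, had 42 reads over the differentiated controls and 4 over the undifferentiated controls, a ratio of 10.5 with an interval of 3.8 to 40.3.

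Runx2 did not pass the test, and of the osteoblast factors called Sp7 alone changed by over 2-fold. Runx2, the factor without which no osteoblasts form, had 49.0, 47.2 and 50.8 CPM in differentiated controls, against 53.4, 51.2 and 48.9 CPM in undifferentiated controls, and the groups overlapped (-0.06 ± 0.06, adjusted p = 0.420). Sp7, encoding osterix, had 1.16, 0.943 and 0.778 CPM in differentiated controls, against 0.141, 0.409 and 0.279 CPM in undifferentiated controls, from 65 reads against 21 (1.76 ± 0.61, edgeR adjusted p = 0.0172). This edgeR call ended without differentiated control 1 (adjusted p = 0.0742) or undifferentiated control 1 or 3 (adjusted p = 0.0938 and 0.0593). Of the 23 factors 10 rose and 4 fell with a median of 0.10. With library totals 7 rose and 8 fell (median -0.05, against -0.16 for all genes). In TPM 2 rose and 8 fell (-0.13, against -0.25 for all genes). The direction thus turned relative to 0, while the list median stayed above that of all genes. Creb3l1, a collagen-secretion factor, rose by 0.57, and Runx3 (-0.63), a relative of Runx2, fell.

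RUNX factors bind the letters TGTGGT, and the 2 sequences below are shown because both genes are known Runx2 targets and rose here while Runx2 was not called. They run from 150 bases before to 20 after the transcription start in the RefSeq promoter table for GRCm38.p6, with the match in capitals (ACCACA, the motif read from the other strand). Bglap lies at chr3:88384447-88384616 on the minus strand and Mmp13 at chr9:7272364-7272533 on the plus strand.
Bglap: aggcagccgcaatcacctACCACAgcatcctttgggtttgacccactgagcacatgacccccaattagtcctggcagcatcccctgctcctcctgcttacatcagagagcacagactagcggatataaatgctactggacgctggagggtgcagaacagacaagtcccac
Mmp13: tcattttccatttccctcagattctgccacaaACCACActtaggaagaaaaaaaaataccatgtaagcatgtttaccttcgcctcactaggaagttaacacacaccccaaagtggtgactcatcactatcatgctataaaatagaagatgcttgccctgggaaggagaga
In windows of 250 bases before to 50 after the start, searched on both strands, TGTGGT was present in 4 of 11 bone matrix genes with a window (36.4%) and in 3 of 15 metalloproteinase and TIMP genes (20%). It was present in 16.9% of all 27025 windows and in 12.3% of those of tested genes. A match describes the letters and not binding.

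Osteocyte markers split evenly, with 4 of 9 tested rising and 4 falling (median 0.03, and -0.12 and -0.25 under the other scalings). Besides Phex, Mmp14 (1.39) and the chemokine scavenger gene Ackr3 (0.69) rose, as did Capg (0.28). Cd44 (-0.92), Irx5 (-0.72), Dmp1 and Gja1 fell. Pdpn, encoding podoplanin of early osteocytes, had 190, 183 and 204 CPM in differentiated controls, against 184, 188 and 191 CPM in undifferentiated controls, and was not called. On log2(TPM + 1) Pdpn was called lower (-0.25, limma adjusted p = 0.000822), at the median of all genes on that scale (-0.25). Gja1, encoding connexin 43, had 115, 122 and 118 CPM in differentiated controls, against 135, 132 and 134 CPM in undifferentiated controls (-0.17 ± 0.05, adjusted p = 0.00478). Of 8 tested connexins and pannexins 4 fell, among them Gjc1 (-0.51), and the hypertrophic chondrocyte and osteoblast channel gene Panx3 rose (0.83).

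Genes that control osteoclasts did not move one way, with 4 of 17 higher and 7 lower (median 0.06, and -0.09 and -0.29 under the other scalings). Tnfrsf11b encodes osteoprotegerin, the decoy that blocks RANKL, and had 292, 294 and 310 CPM in differentiated controls, against 54.9, 54.9 and 57.3 CPM in undifferentiated controls (2.42 ± 0.06). The chemokine gene Cxcl12 rose by 0.95, and Csf1, the macrophage growth factor gene, fell by 0.45. Tnfsf11, encoding RANKL itself, had 0 reads in all 6 libraries.

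**Figure D2:**
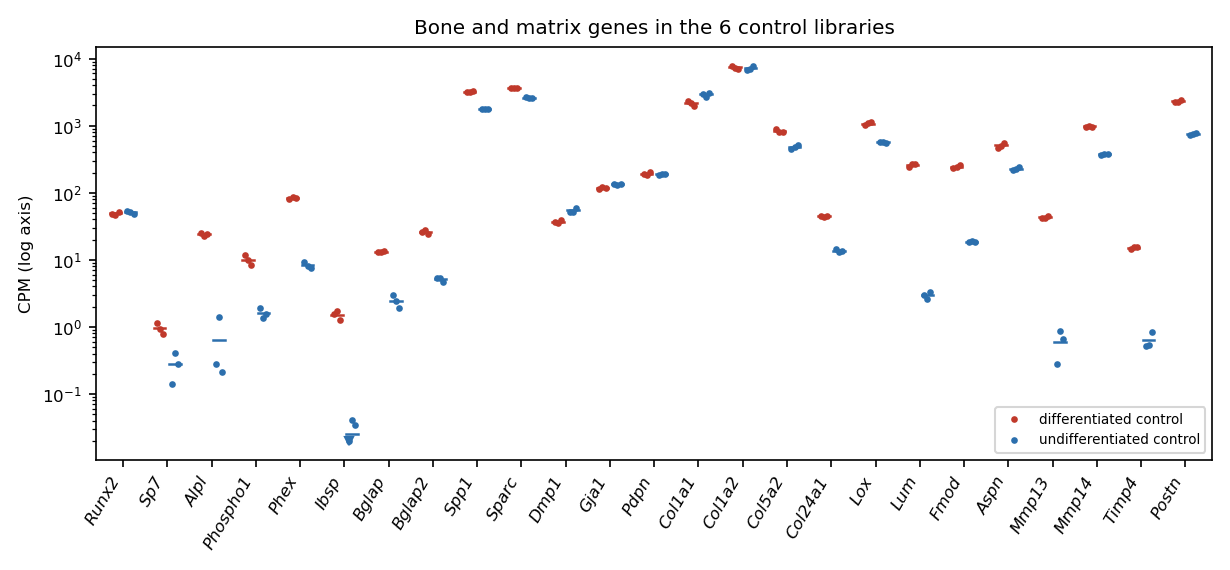
CPM on a log axis for bone and matrix genes in each of the 3 differentiated controls (red, left of each pair) and the 3 undifferentiated controls (blue, right), with bars at group means. A triangle at 0.02 marks a library with 0 reads. Alpl, Ibsp, Lum, Mmp13 and Timp4 differ by over an order of magnitude, whereas the points of Runx2, Pdpn and Col1a2 overlap.

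Type I collagen mRNA did not rise. Col1a1 (chr11:94936224-94953042) had 2356, 2176 and 1986 CPM in differentiated controls, against 3003, 2710 and 3049 CPM in undifferentiated controls, with no overlap (-0.43 ± 0.10, adjusted p = 0.00284). Col1a2, the other chain, had 7807, 7269 and 6989 CPM in differentiated controls, against 6799, 6965 and 7721 CPM in undifferentiated controls, and the groups overlapped (0.04 ± 0.06, adjusted p = 0.604). On log2(TPM + 1) Col1a2 was called lower (-0.27, limma adjusted p = 0.00977), near the median of all genes on that scale (-0.25). Fibril-forming chains, with both of these counted, changed in both directions, 5 of 11 higher and 4 lower (median 0.04, and -0.11 and -0.27 under the other scalings). Col24a1, a minor fibrillar chain of bone, had 45.6, 44.2 and 44.8 CPM in differentiated controls, against 14.7, 12.9 and 13.5 CPM in undifferentiated controls (1.71 ± 0.08). Col5a2 rose by 0.78 and Col3a1 by 0.43, and, besides Col1a1, the partner chain Col5a1 fell by 0.88, as did the cartilage chains Col2a1 (-1.22) and Col11a2 (-1.26).

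Non-fibrillar collagens held both a large fall and several rises, 10 of 25 higher and 8 lower (median 0.04, and -0.11 and -0.22 under the other scalings). Without replicate 2 of each group 8 were called higher and 9 lower. Col28a1, a collagen with von Willebrand domains of peripheral nerve, had 21.7, 20.2 and 20.7 CPM in differentiated controls, against 189, 203 and 224 CPM in undifferentiated controls (-3.30 ± 0.08), the second largest fall, after Fos, among genes with a mean log2 CPM of at least 3. Col12a1, a fibril-associated collagen, had 1403, 1476 and 1479 CPM in differentiated controls, against 876, 836 and 835 CPM in undifferentiated controls (0.77 ± 0.06). Col15a1, a basement membrane collagen of early osteoblasts, rose by 3.10 ± 0.19. Col10a1, the collagen of hypertrophic cartilage, was called higher (adjusted p = 0.000367) at a very low level, 0.413, 0.330 and 0.595 CPM in differentiated controls, against 0, 0.0409 and 0.0349 CPM in undifferentiated controls.

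Enzymes that modify and crosslink collagen rose more often than they fell, 17 against 4 of 29 (median 0.16), and with library totals 13 against 8. In TPM 8 rose and 10 fell (median -0.01, against -0.25 for all genes). Lox, the lysyl oxidase that starts crosslinks, had 1016, 1077 and 1119 CPM in differentiated controls, against 561, 579 and 549 CPM in undifferentiated controls (0.93 ± 0.04). Plod2, the telopeptide lysyl hydroxylase, rose by 0.73, Adamts2, which removes the amino propeptide, by 1.25, the collagen prolyl isomerase gene Fkbp14 by 0.98 and the collagen chaperone gene Serpinh1 by 0.37. The prolyl 4-hydroxylase subunits that use ascorbate directly did not follow: P4ha1 (-0.45) and P4ha2 (-0.32) fell and P4ha3 was not called (-0.13). Of 25 other ascorbate-dependent dioxygenases 14 fell and 2 rose (median -0.22), among the falls the histone demethylase genes Kdm3a (-0.82), Kdm3b (-0.70) and Kdm4a (-0.49). Tet1, Tet2 and the HIF prolyl hydroxylase gene Egln1, which also need ascorbate, were not called. Of 13 genes that move or recycle ascorbate 7 rose and 3 fell (median 0.15, and 4 and 5, and 1 and 3, under the other scalings). The carrier Slc23a2, with 81.9, 85.6 and 87.4 CPM in differentiated controls, against 86.2, 88.9 and 82.8 CPM in undifferentiated controls, was not called. Cyb561, a membrane reductase that uses ascorbate as electron donor, had 22.4, 23.5 and 21.0 CPM in differentiated controls, against 0.375, 0.327 and 0.279 CPM in undifferentiated controls.

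Small leucine-rich proteoglycans, which bind collagen fibrils and set their width, rose in 11 of 15 and fell in 2 (median 0.52). Lum, encoding lumican (chr10:97565128-97572703), had 246, 266 and 268 CPM in differentiated controls, against 2.95, 2.62 and 3.32 CPM in undifferentiated controls. Fmod, encoding fibromodulin, which competes with lumican for collagen, had 233, 241 and 262 CPM in differentiated controls, against 18.7, 18.8 and 18.3 CPM in undifferentiated controls (3.72 ± 0.07). Aspn, encoding asporin, had 470, 504 and 544 CPM in differentiated controls, against 221, 225 and 242 CPM in undifferentiated controls (1.14 ± 0.07). All 3 separated the groups without overlap. Decorin (Dcn, 0.52) and Podn (1.62) rose, and biglycan (Bgn, -0.13) and Prelp (-0.37) fell. The summed TPM of the list was 2700 to 2800 in differentiated controls and 2837 to 2841 in undifferentiated controls. This is another scale than the TMM counts above, and on log2(TPM + 1) the median of all genes was -0.25.

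Cartilage genes rose in 7 of 11 and fell in 1 (median 1.40), with the filter again favouring rises for members near 0 in undifferentiated controls, such as Cilp. Besides Cilp, the matrilin gene Matn4 had 32.9, 30.2 and 27.7 CPM in differentiated controls, against 6.05, 5.43 and 4.75 CPM in undifferentiated controls (2.49 ± 0.11). Matn2, another matrilin, had 978, 910 and 915 CPM in differentiated controls, against 338, 348 and 374 CPM in undifferentiated controls (1.40 ± 0.05). Ucma (2.86), a Gla protein of cartilage, Cnmd (1.99), encoding chondromodulin, and Cytl1 (1.47), a secreted factor of chondrocytes, rose. The chondrocyte master factor gene Sox9 fell by 0.56, and the cartilage collagen gene Col2a1, counted with the collagens, fell as well.

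Among matrix metalloproteinases and their inhibitors 10 of 15 rose and 2 fell (median 0.56), with the filter favouring rises for members near 0 in undifferentiated controls, such as Mmp13. Mmp13, the collagenase of bone and cartilage, had 42.6, 42.2 and 44.8 CPM in differentiated controls, against 0.281, 0.858 and 0.663 CPM in undifferentiated controls (6.12 ± 0.13, 69.5-fold higher, adjusted p = 7.60e-19). Mmp14, the membrane collagenase, had 970, 993 and 959 CPM in differentiated controls, against 361, 373 and 383 CPM in undifferentiated controls (1.39 ± 0.05). Timp4, an inhibitor of these enzymes, had 14.6, 15.5 and 15.3 CPM in differentiated controls, against 0.516, 0.531 and 0.838 CPM in undifferentiated controls (4.55 ± 0.19). Proteases and inhibitors thus rose side by side, with Timp2 (0.47), Timp3 (0.56) and Mmp2 (0.40) also higher, and Mmp16 (-0.88) and Mmp28 (-0.31) lower.

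Matricellular genes rose in 10 of 15 and fell in 3 (median 0.38), and in TPM 5 rose and 4 fell (median 0.05, against -0.25 for all genes). Postn, encoding periostin, had 2245, 2253 and 2416 CPM in differentiated controls, against 735, 752 and 771 CPM in undifferentiated controls (1.61 ± 0.04). Tgfbi, the mouse gene of the BIGH3 protein and a relative of periostin, had 83.5, 83.3 and 84.6 CPM in differentiated controls, against 36.3, 34.4 and 33.2 CPM in undifferentiated controls (1.28 ± 0.06). Thrombospondin 2 (Thbs2, 1.16) and the CCN genes Ccn2 (2.04) and Ccn5 (1.63) rose. Fn1, encoding fibronectin, fell by 0.45 ± 0.06. Elastic fibre genes rose in 8 of 16 and fell in 3 (median 0.06, and -0.09 and -0.14 under the other scalings), led by the latent TGF-beta binding protein genes Ltbp2 (4.02) and Ltbp1 (1.44). Eln, encoding elastin, was higher (2.99 ± 0.60) at 1.61, 1.37 and 1.28 CPM in differentiated controls, against 0.188, 0.123 and 0.209 CPM in undifferentiated controls.

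Insulin-like growth factor genes showed some of the clearest rises at high level. Igf2 had 1022, 1079 and 1142 CPM in differentiated controls, against 113, 109 and 110 CPM in undifferentiated controls (3.29 ± 0.06, 9.76-fold higher, adjusted p = 2.47e-20). Igf1 had 918, 945 and 1025 CPM in differentiated controls, against 220, 221 and 225 CPM in undifferentiated controls (2.12 ± 0.05). Both ligands thus rose together, while the receptor genes Igf1r (-0.99 ± 0.05) and Insr (-0.46) fell. Binding protein 4 (Igfbp4), which holds the ligands back, had 2641, 2451 and 2258 CPM in differentiated controls, against 503, 498 and 534 CPM in undifferentiated controls (2.26 ± 0.06). Pappa, the protease that cuts this binding protein, had 101, 110 and 111 CPM in differentiated controls, against 15.2, 15.4 and 14.8 CPM in undifferentiated controls (2.82 ± 0.06). Igfbp5, the binding protein abundant in bone, rose by 3.81 ± 0.06 and Igfbp7 fell by 0.51. In all 8 of 15 genes of the axis rose and 5 fell (median 0.14, and -0.01 and -0.14 under the other scalings), and the imprinted RNA gene H19 was not called (-0.01).

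TGF-beta and BMP genes fell more often than they rose, 19 against 8 of 37 (median -0.16). The falls included BMP-responsive genes, Id4 (-1.48 ± 0.07), Id1 (-0.92) and the inhibitory Smad gene Smad6 (-0.96), and the rises the TGF-beta ligand gene Tgfb1 (1.29), the receptor gene Tgfbr1 (0.71), the TGF-beta target gene Skil (1.25) and the BMP antagonist gene Grem1. Grem1 had 25.5, 21.2 and 22.9 CPM in differentiated controls, against 2.39, 2.00 and 1.64 CPM in undifferentiated controls (3.55 ± 0.14). Wnt genes fell in 15 of 28 and rose in 7 (median -0.23), with the ligand gene Wnt10b (-1.26), the R-spondin receptor gene Lgr4 (-1.04) and the effector gene Tcf7l2 (-0.93) lower and the secreted Wnt inhibitor genes Wif1 (2.56) and Dkk2 (1.99) higher. Tle2, a corepressor of the Wnt effectors, was among the largest falls, with 9.51, 12 and 9.43 CPM in differentiated controls, against 73.1, 62.2 and 53.6 CPM in undifferentiated controls (-2.61 ± 0.11).

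**Figure D3:**
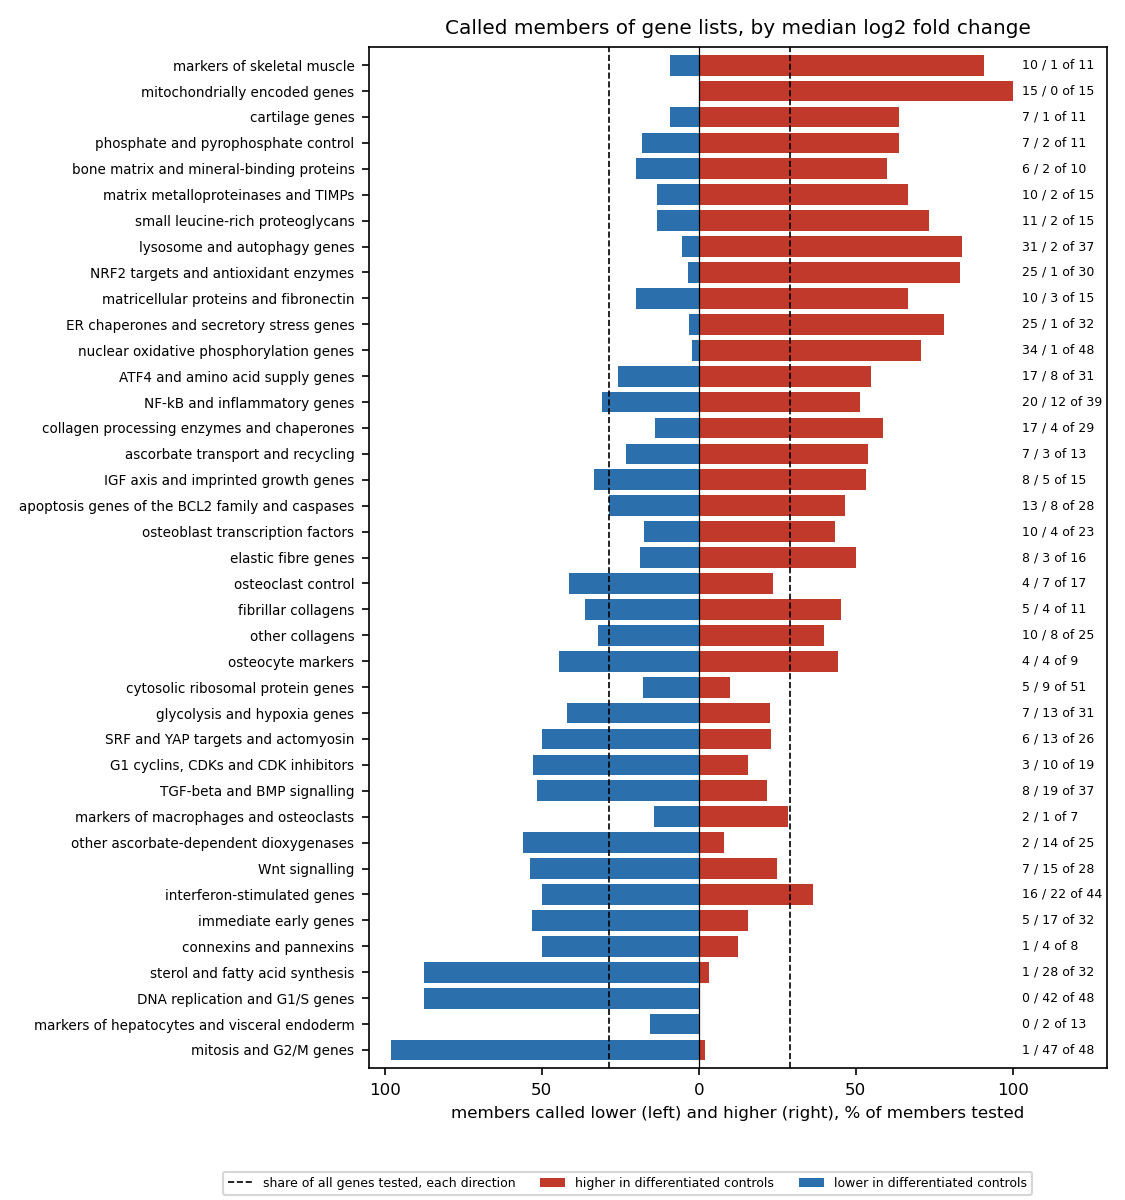
For each gene list with at least 7 tested members, the bar to the right is the percentage of tested members called higher in differentiated controls and the bar to the left the percentage called lower, with counts at the right edge (higher / lower of tested). Dashed lines mark the shares of all genes, 29.1% higher and 28.6% lower. Mitosis, replication and sterol genes lie almost wholly to the left, and mitochondrially encoded, lysosome and NRF2 genes to the right.

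Genes of cell division fell almost without exception. Of 48 mitosis and G2/M genes 47 fell and 1 rose (median -1.86), and of 48 replication and G1/S genes 42 fell and 0 rose (median -0.95). With library totals and in TPM 47 mitosis genes fell and 0 rose, and 44 replication genes fell and 0 rose. Mki67, the Ki-67 gene, had 27.2, 29.0 and 27.9 CPM in differentiated controls, against 93.9, 86.4 and 88.4 CPM in undifferentiated controls (-1.68 ± 0.07). Hmmr, encoding a spindle and hyaluronan-binding protein, had 14.5, 15.6 and 13.9 CPM in differentiated controls, against 66.1, 63.0 and 60.8 CPM in undifferentiated controls (-2.11 ± 0.06, adjusted p = 1.04e-16). Cenpf, a kinetochore protein gene, had 17.4, 20.3 and 18.6 CPM in differentiated controls, against 87.4, 78.4 and 86.2 CPM in undifferentiated controls (-2.16 ± 0.07). All libraries of the differentiated group lay below all of the other. Cytokinesis genes fell to a like degree, with Anln at -2.15, Racgap1 at -1.86 and the motor genes Kif23 (-2.42), Kif20a (-2.29), Kif18b (-2.32) and Kifc5b (-2.45), and so did Troap (-2.60) and Pimreg (-2.29), both mitotic genes. Cdk1, the mitotic kinase gene itself, fell by only 0.37 ± 0.07. The 1 rise was Pttg1, encoding securin (0.22 ± 0.08), which was not called without replicate 2 of each group, where 47 fell and 0 rose.

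Replication genes fell by smaller amounts. Mcm5, a subunit of the replicative helicase, had 7.65, 8.86 and 8.10 CPM in differentiated controls, against 23.0, 21.7 and 22.4 CPM in undifferentiated controls (-1.45 ± 0.08). Mcm3 fell by 1.09, Mcm4 by 1.21 and Uhrf1, the maintenance methylation factor gene, by 1.29. The E2F repressor genes E2f7 (-2.42) and E2f8 (-2.29) led the list of G1 cyclins, CDKs and inhibitors, in which 10 of 19 fell and 3 rose (median -0.15). Cyclin D1 (Ccnd1, -0.47) and the CDK inhibitor p21 (Cdkn1a, -0.60) both fell, whereas the inhibitor p18 (Cdkn2c, 0.69) and the antiproliferative gene Btg1 (0.55) rose.

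Many mitotic promoters hold a CCAAT box and, near the start, a cell cycle homology region of the letters TTTGAA, so 3 of the promoters are shown with both in capitals (ATTGG is CCAAT read from the other strand). They run from 150 bases before to 20 after the RefSeq start in GRCm38.p6, all from the minus strand: Hmmr from chr11:40733418-40733587, Cenpf from chr1:189688067-189688236 and Racgap1 from chr15:99651637-99651806.
Hmmr: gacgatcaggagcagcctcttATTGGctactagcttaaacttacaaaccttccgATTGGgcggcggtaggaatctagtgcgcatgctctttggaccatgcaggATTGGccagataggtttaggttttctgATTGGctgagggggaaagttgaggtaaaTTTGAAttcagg
Cenpf: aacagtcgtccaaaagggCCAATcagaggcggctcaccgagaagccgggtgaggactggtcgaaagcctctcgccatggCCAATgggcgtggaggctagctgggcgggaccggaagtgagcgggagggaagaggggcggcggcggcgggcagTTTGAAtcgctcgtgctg
Racgap1: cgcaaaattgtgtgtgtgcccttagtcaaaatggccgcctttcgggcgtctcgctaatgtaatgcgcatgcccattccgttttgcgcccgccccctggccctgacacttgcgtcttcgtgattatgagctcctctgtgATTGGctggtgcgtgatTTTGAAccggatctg
The first base of TTTGAA stood at base 9 after the start in Hmmr, base 3 in Cenpf and base 6 in Racgap1. The promoter of Anln was examined with these and is not shown, as its stretch of the same length held 0 matches. In the wider window Anln had no CCAAT, and its TTTGAA matches began at bases 22 and 29 after the start. Over windows of 250 bases before to 50 after the start, on both strands, 30 of 41 G2/M genes with a window held CCAAT (73.2%), against 37.9% of all windows and 39.4% of those of tested genes. TTTGAA was in 30 of 41 (73.2%), against 18.1% and 12.1%, and both were in 25 of 41 (61.0%), against 7.12% and 5.25%. In replication genes the E2F letters TTTNNCGC were in 15 of 37 (40.5%), against 5.27% and 8.44%, and CCAAT was in 18 of 22 sterol genes (81.8%).

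Immediate early genes, which serum and growth factors switch on within minutes, fell in 17 of 32 and rose in 5 (median -0.30). Fos, the AP-1 subunit gene (chr12:85473890-85477273), had 1.94, 2.83 and 1.83 CPM in differentiated controls, against 73.1, 68.7 and 62.2 CPM in undifferentiated controls (-4.95 ± 0.22, 31.0-fold lower, adjusted p = 6.13e-09), the largest fall among genes with a mean log2 CPM of at least 3. Egr1 had 30.3, 29.2 and 29.0 CPM in differentiated controls, against 224, 229 and 197 CPM in undifferentiated controls (-2.87 ± 0.07). Zfp36, encoding the mRNA-destabilising protein tristetraprolin, had 12.8, 13.7 and 13.5 CPM in differentiated controls, against 77.4, 73.8 and 77.0 CPM in undifferentiated controls (-2.51 ± 0.08). No library of a group reached the level of the other group. Egr2 (-2.38), Fosb (-2.36), Ier2 (-2.30), Junb (-1.60) and Klf2 (-1.60) fell as well. In the other direction, the nuclear receptor gene Nr4a1 had 26.2, 22.5 and 24.0 CPM in differentiated controls, against 7.55, 8.99 and 10.7 CPM in undifferentiated controls (1.41 ± 0.12), and its relative Nr4a3 rose by 2.53 ± 0.32. SRF and YAP targets and actomyosin genes fell in 13 of 26 and rose in 6 (median -0.15), with Acta2, encoding smooth muscle actin, at 307, 310 and 296 CPM in differentiated controls, against 586, 553 and 571 CPM in undifferentiated controls, and Ccn2, a YAP target given above, higher.

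Sterol and fatty acid synthesis genes fell in 28 of 32 and rose in 1 (median -0.87). Sqle, the squalene epoxidase gene, had 69.3, 69.9 and 73.3 CPM in differentiated controls, against 173, 181 and 173 CPM in undifferentiated controls (-1.31 ± 0.05). Fdft1, encoding squalene synthase, had 31.7, 33.0 and 34.8 CPM in differentiated controls, against 74.6, 74.1 and 76.6 CPM in undifferentiated controls (-1.18 ± 0.05). The groups were apart in both. Hmgcs1 (-1.21), an early enzyme, and Cyp51 (-1.28), a late one, fell with the activator gene Srebf2 (-1.17). The 1 rise was Ebp, a sterol isomerase gene (0.76 ± 0.07).

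**Figure D4:**
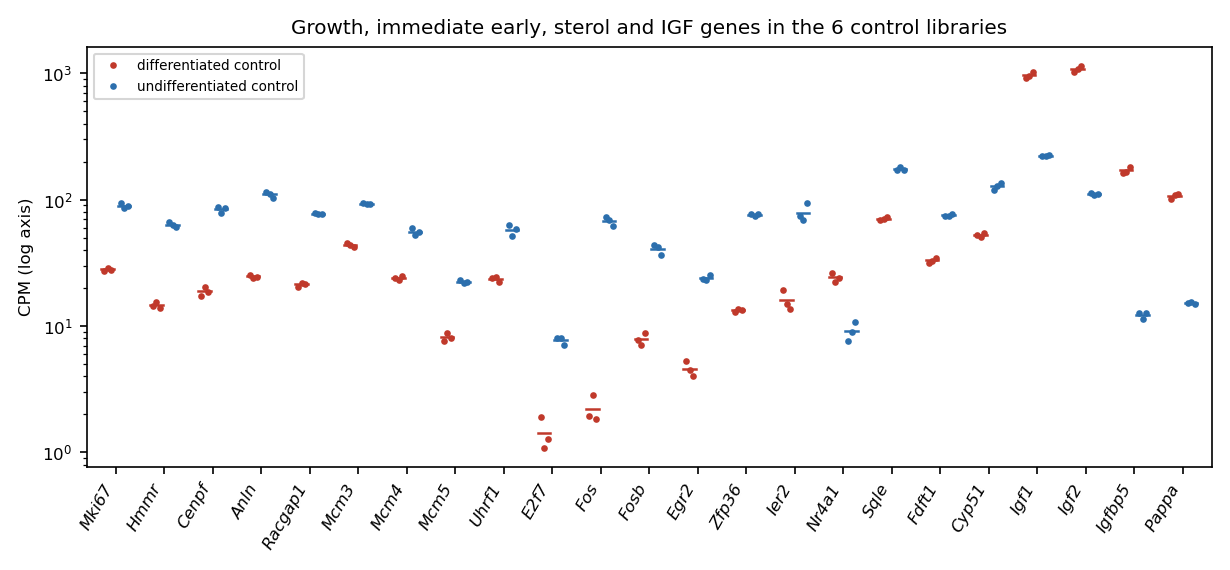
CPM on a log axis for division, immediate early, sterol and IGF genes in each of the 3 differentiated controls (red, left of each pair) and 3 undifferentiated controls (blue, right), with bars at group means. Of the genes shown, the 5 that are higher in differentiated controls are Nr4a1, Igf1, Igf2, Igfbp5 and Pappa, and no pair of groups overlaps.

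Genes of the secretory and degradative compartments mostly rose. Endoplasmic reticulum chaperone and stress genes rose in 25 of 32 and fell in 1 (median 0.37), lysosome and autophagy genes in 31 of 37 with 2 falls (0.50), and NRF2 targets and antioxidant genes in 25 of 30 with 1 fall (0.43). In TPM the counts were smaller in the same direction, 13 and 5, 19 and 4, and 13 and 4. Sec61b, a subunit of the translocon, had 226, 244 and 254 CPM in differentiated controls, against 95.8, 79.1 and 78.4 CPM in undifferentiated controls (1.52 ± 0.07), and Calr, the calreticulin gene, rose by 0.74. Ctsk, the collagen-degrading cathepsin best known from osteoclasts, had 33.6, 34.0 and 35.3 CPM in differentiated controls, against 2.81, 3.35 and 2.72 CPM in undifferentiated controls (3.53 ± 0.10). Hexa, a lysosomal hexosaminidase gene, rose by 1.05 and Gabarapl1, of autophagosomes, by 0.78. Nqo1, a quinone reductase and standard NRF2 target, had 231, 242 and 253 CPM in differentiated controls, against 83.6, 81.9 and 71.0 CPM in undifferentiated controls (1.62 ± 0.06). Hmox1 (0.79), Srxn1 (0.88) and Gpx4 (0.69) rose with it, and Gclc, the limiting enzyme of glutathione synthesis, fell (-0.23). ATF4 and amino acid supply genes rose in 17 of 31 and fell in 8 (median 0.25). In TPM 9 rose and 12 fell (-0.16, against -0.25 for all genes). Nupr1 (1.97), Trib3 (1.40), Chac1 (1.16) and Ddit3 (1.02), stress genes downstream of ATF4, were the largest rises, and the amino acid carrier gene Slc7a5 fell by 0.69.

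Mitochondrially encoded genes rose in 15 of 15 (median 1.45), and they held 7.72%, 8.93% and 11.1% of the reads in differentiated controls, against 4.65%, 4.62% and 3.91% in undifferentiated controls. An exact permutation test over these 3 against 3 shares cannot go below p = 0.1, the value found. mt-Nd1, a complex I subunit, had 5265, 5653 and 7359 CPM in differentiated controls, against 1949, 2013 and 1855 CPM in undifferentiated controls (1.65 ± 0.15). mt-Atp6, an ATP synthase subunit, varied most within a group, at 2328, 3072 and 7403 CPM in differentiated controls, against 1510, 1690 and 1370 CPM in undifferentiated controls, and its call (edgeR adjusted p = 0.0167) ended without undifferentiated control 1 (0.0502) or 3 (0.0557) and with the 6 controls fitted alone (0.0721). Gm28661, Gm10925 and Gm28437, which the annotation lists as unprocessed pseudogenes of chromosome 1 and which rank beside mitochondrial genes in TPM, rose by 1.38, 1.04 and 1.75. Reads shared with near-identical copies could be split between them, so these levels are uncertain. Nuclear oxidative phosphorylation genes rose in 34 of 48 and fell in 1 (median 0.29). In TPM 4 were higher and 11 lower (median -0.00), where the median of all genes was -0.25. Their direction relative to 0 thus depends on the scaling, while the list median stood above that of all genes in both. Cytosolic ribosomal protein genes changed less often than the background, 5 of 51 higher and 9 lower (median -0.04), and with library totals 31 and in TPM 41 of them fell and 0 rose. By TPM the most abundant gene was Bc1, a small RNA polymerase III transcript, with 53344, 46133 and 43338 TPM in differentiated controls, against 55596, 55149 and 57108 TPM in undifferentiated controls, and it was not called (0.12 ± 0.08, adjusted p = 0.206).

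Glycolysis and hypoxia genes fell in 13 of 31 and rose in 7 (median -0.07). Car9, the carbonic anhydrase that marks hypoxia, fell by 3.65 ± 0.27 at a low level, 0.248, 0.566 and 0.320 CPM in differentiated controls, against 4.83, 6.05 and 3.46 CPM in undifferentiated controls. Ndrg1, another hypoxia target, had 53.4, 49.6 and 49.5 CPM in differentiated controls, against 169, 175 and 188 CPM in undifferentiated controls (-1.80 ± 0.06). Hk2 (1.16) and Pfkfb3 (1.29), which raise glycolytic flux, rose, as did Vegfa (0.66), so hypoxia targets moved in both directions.

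Immune lists were mixed. NF-kB and inflammatory genes rose in 20 of 39 and fell in 12 (median 0.23), with 15 and 15 in TPM (median -0.06). Cfb, encoding complement factor B, had 104, 106 and 110 CPM in differentiated controls, against 5.25, 5.39 and 6.14 CPM in undifferentiated controls (4.24 ± 0.09), and Tnfaip2 (1.90) and the prostaglandin synthase gene Ptges (1.02) rose. The neutrophil chemokine genes Cxcl5 (-2.48) and Cxcl1 (-2.84) fell at low levels. Interferon-stimulated genes fell in 22 of 44 and rose in 16 (median -0.28): the factor gene Stat2 fell by 1.14 and the RNA sensor gene Ddx58 by 0.72, and the antigen presentation genes B2m (0.67) and H2-K1 (0.75) rose. Among BCL2 family and caspase genes 13 of 28 rose and 8 fell (median 0.14, and -0.01 and -0.22 under the other scalings). Casp1, the inflammatory caspase gene, had 6.04, 5.33 and 6.18 CPM in differentiated controls, against 0.281, 0.327 and 0.558 CPM in undifferentiated controls (3.86 ± 0.34). Apaf1 (-0.73), of the apoptosome, fell, Bmf (0.72), a BH3-only killer, rose, and Bax was not called (0.03).

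Among markers of other cell types, the skeletal muscle list held the most called genes. Of 11 tested skeletal muscle markers 10 rose and 1 fell (median 2.34), and the list summed to 77.3 to 91.7 TPM in differentiated controls and 66.3 to 73.4 TPM in undifferentiated controls. The filter keeps a gene expressed in a single group, so members near 0 in undifferentiated controls entered through groups where they are high. That selection alone favours rises in the count and the median. Myog, the myogenin gene, had 3.47, 4.48 and 4.30 CPM in differentiated controls, against 0, 0.123 and 0.175 CPM in undifferentiated controls (5.20 ± 0.46), and Tnnc2, a fast troponin gene, had 5.17, 3.87 and 5.13 CPM in differentiated controls, against 0.0938, 0.0817 and 0.244 CPM in undifferentiated controls. Mybph and Myl1, of muscle filaments and outside the list, had 232 and 194 reads over the differentiated controls and 0 over the undifferentiated controls, at least 77.2-fold and 64.6-fold higher. They were picked from genes with 0 reads in a group, so their absence there adds no separate support. Myod1 had 31 reads against 0, at least 10.3-fold higher. Tnnt3, another troponin gene, fell (-1.12 ± 0.11). Myog and Tnnc2 stood at a few CPM, and the part of these genes in other results was not tested. Hepatocyte markers fell in 2 of 13, Apoh and Cubn, and rose in 0, and 1 of 1 tested erythroid (Epb42), 2 of 3 adipocyte (Lep and Car3), 2 of 7 macrophage and osteoclast (Acp5 and Lyz2), 0 of 3 endothelial and 0 of 4 epithelial markers rose. Falls were Mpeg1 of macrophages, Cdh5 of endothelium, and Cdh1 and Krt14 of epithelium, all at or under 12.7 CPM in every library. Acp5, the tartrate-resistant phosphatase of osteoclasts, stood at 0.992, 0.896 and 0.503 CPM in differentiated controls, against 0.0469, 0.0817 and 0.0349 CPM in undifferentiated controls.

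At the level of transcripts, 5002 (12.5%) of 40063 tested were called higher and 4213 (10.5%) lower, 23.0% in all, with a biological coefficient of variation of 59.2% against 8.18% for genes. Splice forms annotated as retaining an intron went mainly one way: 95 of 7999 rose and 1602 fell, whereas of 24350 protein-coding transcripts 4561 rose and 1992 fell. With library totals the protein-coding split turned (2306 higher, 4189 lower) and the retained-intron split did not (50 and 2208). Over the other settings the retained-intron falls numbered 781 to 2386 and the rises 43 to 171. Nonsense-mediated decay transcripts fell in 162 and rose in 81 of 2508.

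Within genes the same direction was seen without any scaling between libraries. In 5808 genes with at least 5 TPM and an annotated retained-intron form, the median share of a gene's TPM in such forms was 2.64%, 2.69% and 2.60% in differentiated controls, against 5.59%, 5.36% and 4.52% in undifferentiated controls (exact permutation p = 0.1, the smallest that 3 against 3 libraries allow). The groups did not overlap. Per gene, the share was lower without overlap in 2031 and higher in 114, together 36.9% of these genes. Among 1993 of them that were not called at the gene level it was lower in 687 and higher in 32. Examples were taken only from the more highly expressed of the 5808 genes, without overlap, and were picked after their values were seen. Those with the largest change include Srp72, of the signal recognition particle, at 17.7%, 16.2% and 20% in differentiated controls, against 46.9%, 42.2% and 36.4% in undifferentiated controls, the gene itself not being called (0.01). Qars, the glutaminyl tRNA synthetase gene, had 14.9%, 12.3% and 4.94% in differentiated controls, against 35.7%, 44.9% and 30.6% in undifferentiated controls. In the other direction, Clk1, a kinase of splicing factors, had 42.3%, 36.1% and 38.2% in differentiated controls, against 31.1%, 34.1% and 34.6% in undifferentiated controls. Salmon assigns reads among annotated forms, so these shares are estimates.

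A test of transcript usage within genes called 258 of 9175 genes (2.81%), 81 of which were not called at the gene level, and apart from this test 448 genes had transcripts called in both directions. The matrix gene Postn was among the 258 genes called for usage. Its transcript Postn-204 (3121 bases) held 27.5%, 30.0% and 27.4% of the gene's TPM in differentiated controls, against 6.07%, 6.37% and 5.59% in undifferentiated controls (edgeR usage adjusted p = 5.79e-17). Postn-201 (3189 bases), the most abundant form, held 37.7%, 36.7% and 37.2% in differentiated controls, against 39.6%, 38% and 41.9% in undifferentiated controls, so the rise of Postn came with a shift among its alternative forms. Plac8-201 held 99.5%, 98.9% and 99.8% in differentiated controls, against 45.5%, 61.6% and 44.3% in undifferentiated controls, most of the remainder lying in a form of nearly equal length (744 and 738 bases). Zfp36-201 held 90.1%, 76.3% and 92.2% in differentiated controls, against 23.6%, 26.2% and 26.7% in undifferentiated controls, and the retained-intron form Atf4-203 held 0.797%, 1.2% and 1.48% in differentiated controls, against 9.14%, 9.29% and 9.55% in undifferentiated controls. Fos-203, a form with no coding sequence, was at 0 in all 3 differentiated controls, against 28.4%, 32.6% and 37.0% in undifferentiated controls, though the whole gene had few reads in differentiated controls. Usage calls depended on the fit: leaving out a library gave 124 to 216 genes, leaving out replicate 2 of each group gave 95, and limma's diffSplice gave 1550.

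**Figure D5:**
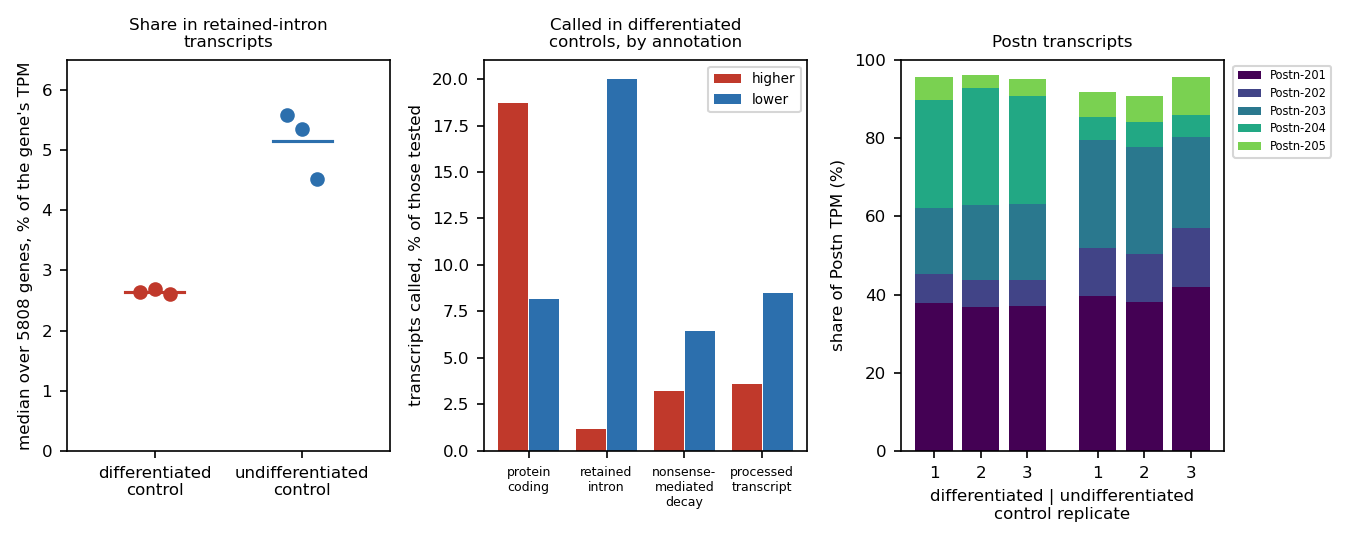
Left, the median share of a gene's TPM in retained-intron transcripts over 5808 genes, 1 point per library with bars at group means, lower in all differentiated controls (red) than in undifferentiated controls (blue). Middle, the percentage of tested transcripts of each annotation called higher (red) or lower (blue) in differentiated controls. Right, the share of Postn TPM in its 5 transcripts with a mean share of at least 5%, stacked per library, where the Postn-204 segment is taller in the differentiated controls; the space above a bar is other transcripts.

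The medium effect was not the same with BIGH3 present. The interaction, which is the medium effect in BIGH3 treated cells minus that in control cells, was called for 4730 genes (32.2%), 2378 positive and 2352 negative, and 3326 were called without the 4 libraries with liver transcripts. Genes named here were chosen in part for large effects in the control libraries, which enter the interaction with the opposite sign, so that choice alone favours a smaller effect with BIGH3, and their interactions are given as values without a count. The interaction was -6.0 ± 0.74 on the log2 scale for Cilp, 1.85 ± 0.30 for Mmp13 and 2.24 ± 0.08 for Hmmr, which fell by 2.11 in control cells. Lum (0.25 ± 0.15), Fos (0.19 ± 0.40), Alpl (-1.17 ± 0.78) and Runx2 (-0.12 ± 0.09) had no called interaction. Both medium effects rest on different libraries, and neither the dose nor the time of BIGH3 is stated.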

How the data were processed

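RNA of 12 libraries was sequenced after KAPA library preparation, per the labels' protocols, and with no strand stated, reads of a gene and an antisense partner cannot be told apart. Salmon, cutadapt, FastQC, StringTie and the build mm10 appear without versions or order, per the submitters' processing notes. The deposited files give, per the file headers, an estimated count (expected count) of reads for each transcript, which need not be whole, and TPM, which the authors scaled to a fixed sum per library after correction for length. Lengths and effective lengths of transcripts were also deposited, per the file headers.

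Of 147828 transcripts 137063 (92.7%) matched GENCODE M21 (GRCm38) by identifier without version; the others, 1.44% to 3.08% of the reads of the 6 control libraries, were left out. Reads were summed over 51707 genes, rounded and kept by filterByExpr, which also keeps a gene expressed in a single group. Some list members were therefore tested only through groups where they are high. edgeR 4.0.16 (R 4.3.3) fitted all 12 libraries with TMM, robust quasi-likelihood and 1 term per group (8 residual degrees of freedom). Tests were two-sided, with Benjamini-Hochberg adjustment over all genes or transcripts and a call below 0.05. Errors of log2 fold changes are standard errors worked back from the F statistic, with n = 3 libraries a group. Usage was tested with diffSpliceDGE (Simes) on transcripts. Alternatives used DESeq2 1.42.0, limma 3.58.1, other scalings, filters and libraries. Scripts were tested on simulated data with few changed features and, for transcripts, less spread than measured here. That test therefore does not give the error rate of transcript and usage calls in these data. Intervals (95%) and floors (3 reads over a group) cover counting error only.

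The part of the series, its 43 gene lists and its tests were chosen with earlier results of these data known. Named genes were the 15 largest rises and falls (mean log2 CPM 3 or more, groups not overlapping, predicted gene models left out), up to 4 members of each list with the smallest adjusted p, 20 fixed bone and control genes, the 10 highest by TPM and 12 usage genes; other list members named in the text were chosen after their values were seen. A few genes under these rules are left undescribed.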

Additional observations from a re-analysis of the deposited data

Results flagged for a closer look

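The medium effect differed between BIGH3 treated and control cells for 4730 genes, by edgeR's test of the difference itself. A single transcript outside the matched annotation (1849 bases) held a mean of 2.09% of the reads in differentiated controls, at 1.99%, 2.39% and 1.90%, against 0.586%, 0.596% and 0.653% in undifferentiated controls; it entered no test and no gene is named for it.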

How the results depend on the processing

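Genes called numbered 7824 to 8103 when a library was left out, 7275 without replicate 2 of both control groups, 8220 with DESeq2 and 8442 with the replicate block, and no called gene shared with these settings changed direction. Other settings did reverse some genes. On log2(TPM + 1) with limma 8693 genes were called, 5946 of them shared with the main fit and 5819 of these in the same direction. With length offsets 7580 were called, 7275 shared and 7270 in the same direction. Transcripts called numbered 6994 to 8024 when a library was left out, 5592 without replicate 2 of both control groups and 12649 with DESeq2. Usage calls were 145 with the replicate block, 1550 with limma's diffSplice, 95 without replicate 2 of both groups and 124 to 216 when a library was left out. The interaction gave 4167 to 4693 genes when a library was left out and 4669 with the replicate block. Deviations of same-numbered libraries from their group means had correlations of -0.15, -0.06 and -0.22 over 9889 genes, so the numbers were not taken as pairs, although replicate 2 of each group lay to the same side of the second principal component and shared the liver transcripts, and, Mpeg1 excepted, the block changed no call of a named gene.

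Of 3103 values of the 194 named genes tested, 3058 kept direction and call, 34 lost the call, 1 gained it in the same direction and 10 reversed. The reversals were Txnrd1 (-0.0186 in TPM), Runx2 (0.00713 with length offsets), Col1a2 (-0.109 with library totals, -0.265 in TPM, and -0.00855 to 0.094 when a library was left out), Pdpn (-0.116, -0.246, and -0.0131 to 0.0693) and Bc1 (-0.0227 with library totals and -0.238 in TPM). Runx2 was called only with library totals (-0.21). In TPM the reversed values of Col1a2 and Pdpn were themselves called lower (limma adjusted p = 0.00977 and 0.000822), near the median of all genes in TPM (-0.25). Calls of Zeb1, Atf4, Sox4, Cyb561a3, Kdm7a, Cox5b and Epb42 ended in TPM, and those of Car3 and Mpeg1 in most settings. Of 688 totals of members called in a list, both directions together, 668 stayed within 1.5 times the reported total, while the split into higher and lower moved more, for osteoblast factors to 2 and 8 and for endoplasmic reticulum genes to 13 and 5 in TPM; the other 20 were 10 for adipocyte markers, 3 for ribosomal genes, 2 for erythroid markers and 1 each for ascorbate transport, small proteoglycans, NRF2 targets, oxidative phosphorylation and endothelial markers. The causes were not tested. Genes near 1 CPM rest on few reads (Sp7 on 65 and 21), which limits their folds.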
